A study of Bos taurus with 44 samples.

Results

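IL4, IL5, IL13, IL4R and STAT6 are the type 2 cytokine genes, the IL4 receptor gene and the transcription factor gene of that pathway on a bovine immune gene array. They were chosen by name, as the spots annotated with 1 of these 5 gene symbols and no other, and they are 5 of the 141 named genes measured. The type 2 arm of immunity is carried by helper T cells and innate cells that secrete IL4, IL5 and IL13. IL4 and IL13 act through receptors that contain the chain encoded by IL4R, and the activated receptor phosphorylates STAT6, which enters the nucleus and switches on target genes in lymphocytes and myeloid cells. In B cells this route favours antibody class switching, and IL5 supports eosinophils.

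RNA came from blood mononuclear cells (lymphocytes and monocytes purified on a density gradient and not cultured further) of Holstein cows, 6 days after immunization with antigens given to raise antibody and cell-mediated responses. Cows had been classed as high or low for the antibody response (Ab) or for the cell-mediated response, which the labels call DTH. The 44 two-colour arrays were read as 11 cows: 1 cow labelled high for both traits, called the shared cow here, 2 further high-Ab cows, 2 further high-DTH cows, 3 low-Ab cows and 3 low-DTH cows. Whether animals that carry the same number in separate groups are distinct is not stated in the labels, and here they were treated as distinct. All cows, low responders included, were immunized, so no group shows the unimmunized state, and the labels give no ages or antigen names. Each array set amplified RNA of 1 cow against the same reference RNA, a standard prepared from blood mononuclear cells too, and every cow was hybridised in both dye orientations. High-DTH cow 2 had 5 arrays, low-DTH cow 3 had 3 and every other cow had 4.

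Values are deposited log ratios, read as log2, so that 1 unit is a 2-fold ratio and 0 is the level of the standard. The log base and the direction are not stated. Ratios are read here as cow over standard, and all signs below would swap together under the opposite reading. The sign of 3 arrays is open to doubt: low-Ab cow 1 has 2 of them (its arrays 1 and 2) and low-DTH cow 3 has the other (its array 3). Each ran opposite to further arrays of its own animal, with r as low as −0.73. They were also the only arrays with a negative mean r to the arrays of other cows (−0.20, −0.23 and −0.20). Arrays 3 and 4 of low-Ab cow 1 were at 0.23 and 0.17 by that measure. The 3 arrays were kept as deposited, and selected results are also given with their signs turned. A cow value is the mean over 8 spots per gene, then over arrays within each dye orientation, then over both orientations. Control spots of vapA, a bacterial gene, had a ratio of 0.027 ± 0.087 (SD, n = 11 cows). Ratios give no absolute level, so whether these cells held much or little of each transcript is unknown, genes cannot be ranked by level, and the labelled cell type could not be checked against its markers. In a mixed blood sample, fewer cells of a type and less RNA per cell cannot be told apart.

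No difference between high and low responders was detected for any of the 5 genes. Cow values lay between −0.25 and 0.27, and 0 of 5 genes passed the adjusted test, reached an unadjusted p under 0.05, or had high and low cows that did not overlap. The spread between cows limited how small a difference could be detected. In the test used (limma), each gene's spread is moderated by the spread of all features, and the SEs and intervals of differences are moderated too. The 95% intervals of the 5 genes together ran from −0.34 to 0.22 for Ab and from −0.42 to 0.35 for DTH.

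**Figure D1:**
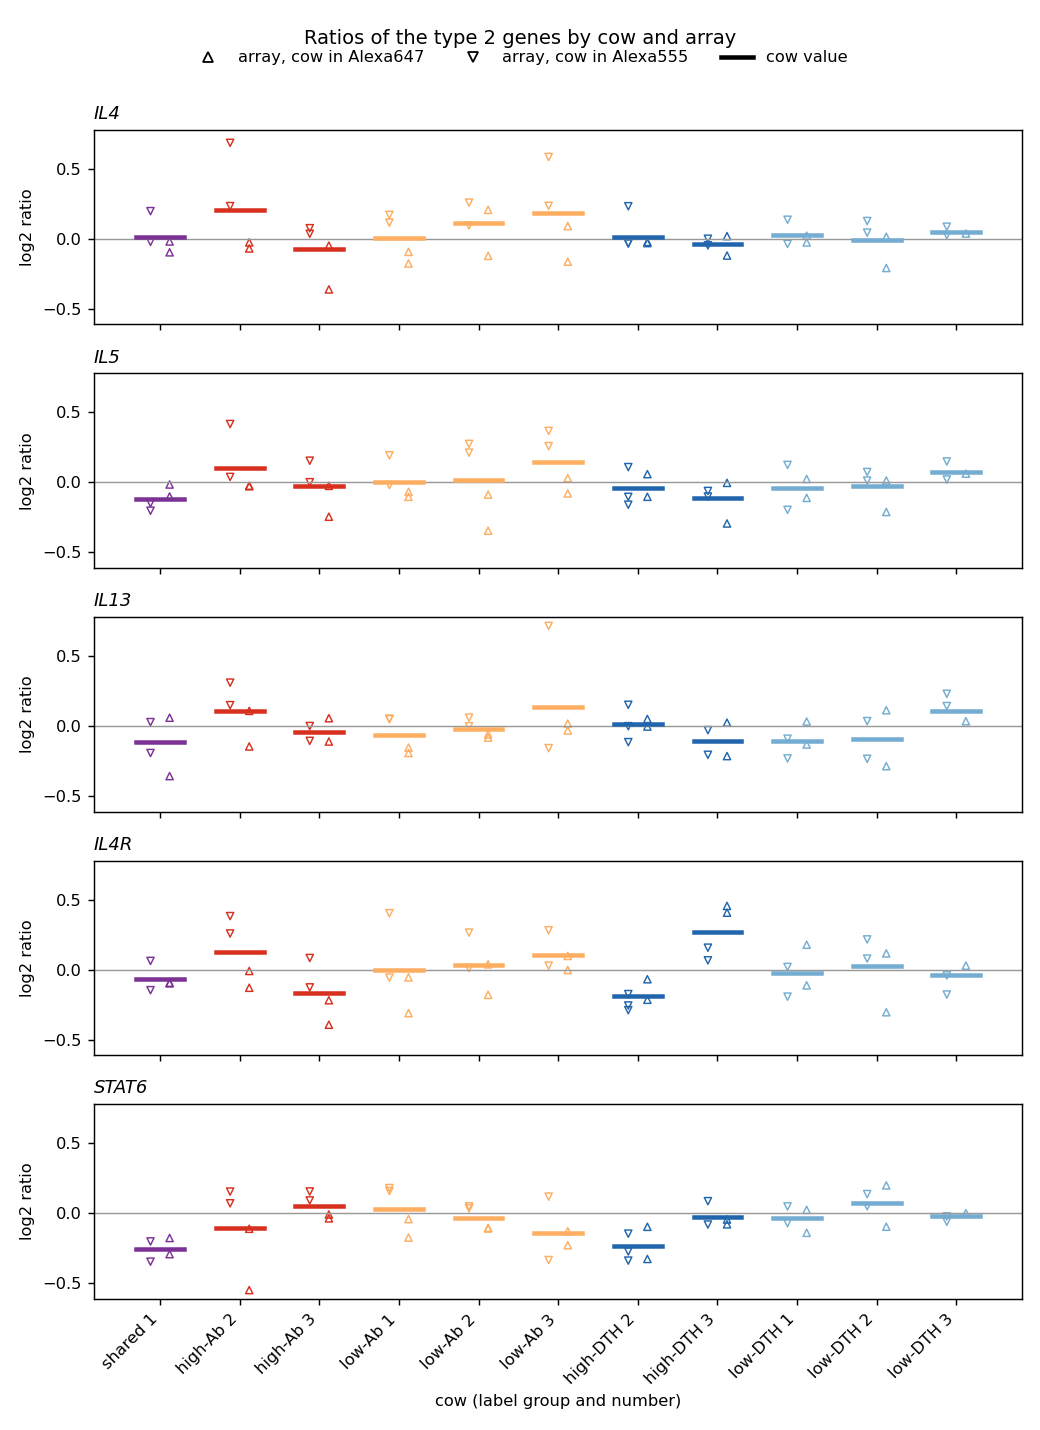
Log2 ratio of each cow to the RNA standard (vertical axis) for the 5 genes, with the 11 cows by label group along the horizontal axis. Bars are cow values and triangles single arrays, by the dye of the cow's RNA. STAT6 in the shared cow and in high-DTH cow 2 lay below 0 on every array, IL4R was low in high-DTH cow 2 and high in high-DTH cow 3, and the highest IL4, IL5 and IL13 arrays were array 4 of high-Ab cow 2 and array 4 of low-Ab cow 3.

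IL4 is the cytokine that drives naive helper T cells toward the type 2 fate. Its ratio was 0.014 in the shared cow, 0.21 in high-Ab cow 2 and −0.076 in high-Ab cow 3, and 0.0033, 0.11 and 0.19 in low-Ab cows 1, 2 and 3. The low-Ab cows thus lay inside the range of the high-Ab cows. High-DTH cows 2 and 3 were at 0.014 and −0.038, and low-DTH cows 1, 2 and 3 at 0.023, −0.0063 and 0.046, so that all cows compared for DTH were close to the standard. High minus low was −0.051 ± 0.11 (SE, adjusted p = 0.999, limma with Benjamini-Hochberg adjustment over all features, 3 against 3 cows) for Ab and −0.024 ± 0.078 (adjusted p = 0.922) for DTH. From the highest to the lowest group mean the order was low-Ab (0.10 ± 0.092, SD, n = 3 cows), high-Ab (0.048 ± 0.14), low-DTH (0.021 ± 0.026) and high-DTH (−0.0031 ± 0.030), and each neighbour in that order was closer than the larger SD of the pair.

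IL5, which supports the growth and survival of eosinophils and in some species of B cells, was at −0.12 in the shared cow, 0.10 in high-Ab cow 2 and −0.029 in high-Ab cow 3. The low-Ab cows were at 0.0006, 0.013 and 0.14. The groups overlapped, with 1 high-Ab cow above 2 of the 3 low-Ab cows. High-DTH cows 2 and 3 were at −0.037 and −0.12 and the low-DTH cows at −0.040, −0.028 and 0.074. All 3 high-DTH cows, with the shared cow, were below 0, yet high-DTH cow 2 lay just above low-DTH cow 1. The differences were −0.068 ± 0.10 (SE, adjusted p = 0.988, limma) for Ab and −0.092 ± 0.084 (adjusted p = 0.784) for DTH. The order of the group means was low-Ab (0.053 ± 0.080, SD, n = 3 cows), low-DTH (0.0018 ± 0.062), high-Ab (−0.015 ± 0.11) and high-DTH (−0.090 ± 0.046), again with every neighbour within the larger SD.

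IL13 shares the receptor chain encoded by IL4R and acts mainly on non-T cells. Its ratio was −0.12 in the shared cow, 0.10 in high-Ab cow 2, −0.041 in high-Ab cow 3, and −0.062, −0.021 and 0.14 in the low-Ab cows. High-DTH cows 2 and 3 were at 0.017 and −0.11 and the low-DTH cows at −0.11, −0.094 and 0.11. In each trait the cows of the 2 classes overlapped. The difference was −0.035 ± 0.11 (SE, adjusted p = 0.999, limma) for Ab and −0.039 ± 0.10 (adjusted p = 0.911) for DTH. Turning the 3 arrays brought the DTH difference to −0.00043 ± 0.074 (adjusted p = 0.997), since low-DTH cow 3 then moved from 0.11 to −0.0050. The 4 group means spanned 0.017 (low-Ab) to −0.069 (high-DTH), less than the SD of 0.10 to 0.12 within 3 of the 4 groups, with high-Ab at −0.017 and low-DTH at −0.030 in between.

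IL4R encodes the alpha chain that binds IL4 and carries the docking sites for STAT6. It varied most of the 5 genes between cows, and the widest gap lay inside a group. High-DTH cow 2 was at −0.19, below 0 on 5 of 5 arrays (−0.29 to −0.069), and high-DTH cow 3 was at 0.27, above 0 on 4 of 4 arrays (0.066 to 0.46). These are the lowest and the highest of the 11 cows, and both belong to the class labelled high-DTH. The shared cow was at −0.069, high-Ab cows 2 and 3 at 0.13 and −0.16, the low-Ab cows at −0.0054, 0.033 and 0.10, and the low-DTH cows at −0.027, 0.026 and −0.041. The 6 low responders therefore stayed between −0.041 and 0.10, inside the range of the 5 high responders. The SD was 0.20 over the 5 high cows and 0.051 over the 6 low cows, or 0.079 over the low cows with the 3 arrays turned, when low-Ab cow 1 stood at 0.18. This difference in spread was not tested. The bacterial vapA spots ran the other way from IL4R over the 11 cows (r = −0.60) and were lowest in high-DTH cow 3, at −0.13, and their part in the IL4R values was not tested. High minus low was −0.079 ± 0.11 (SE, adjusted p = 0.972, limma) for Ab and 0.017 ± 0.14 (adjusted p = 0.962) for DTH. The order of the group means was low-Ab (0.043 ± 0.054, SD, n = 3 cows), high-DTH (0.0035 ± 0.24), low-DTH (−0.014 ± 0.036) and high-Ab (−0.036 ± 0.15), with no neighbours apart by more than the larger SD.

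STAT6 carries the signal from the receptor to the genes. Its ratio was −0.25 in the shared cow, where 0 of 4 arrays were above 0 (−0.35 to −0.18), and −0.23 in high-DTH cow 2, where 0 of 5 arrays were above 0 (−0.34 to −0.097). The other cow classed as high-DTH, cow 3, was at −0.030, level with the low-DTH cows at −0.034, 0.072 and −0.021. Thus 2 of the 3 high-DTH cows lay below all low-DTH cows and the third lay among them. High minus low for DTH was −0.18 ± 0.099 (SE, 95% interval −0.42 to 0.062, unadjusted p = 0.120, adjusted p = 0.585, limma, 3 against 3 cows), from a high-DTH mean of −0.17 ± 0.12 (SD) and a low-DTH mean of 0.0057 ± 0.058. This was the smallest p of the 5 genes in any comparison, and it ranked 24 among the 141 named genes. With the 3 arrays turned the difference was −0.19 ± 0.088 (adjusted p = 0.430). It kept its sign under every alternative run, between −0.25 and −0.13.

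For Ab, STAT6 was at −0.11 and 0.050 in high-Ab cows 2 and 3 and at 0.031, −0.032 and −0.14 in the low-Ab cows, so outside the shared cow the high-Ab and low-Ab cows covered much the same range. The difference was −0.056 ± 0.11 (SE, adjusted p = 0.999, limma), and without the shared cow it was 0.019. STAT6 was below the standard in 8 of 11 cows. Its group means ran from low-DTH through low-Ab (−0.048 ± 0.088, SD, n = 3 cows) and high-Ab (−0.10 ± 0.15) to high-DTH, with each neighbour within the larger SD. The bacterial vapA spots also had a lower mean in the high-DTH cows (−0.049 ± 0.079, SD) than in the low-DTH cows (0.087 ± 0.099). Over the 11 cows, STAT6 and vapA correlated at r = 0.31, and the part of the control's shift in the STAT6 value was not tested. For the cytokines, r with vapA was 0.44 for IL5, 0.41 for IL13 and −0.092 for IL4, and the control's part in their values was not tested either.

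**Figure D2:**
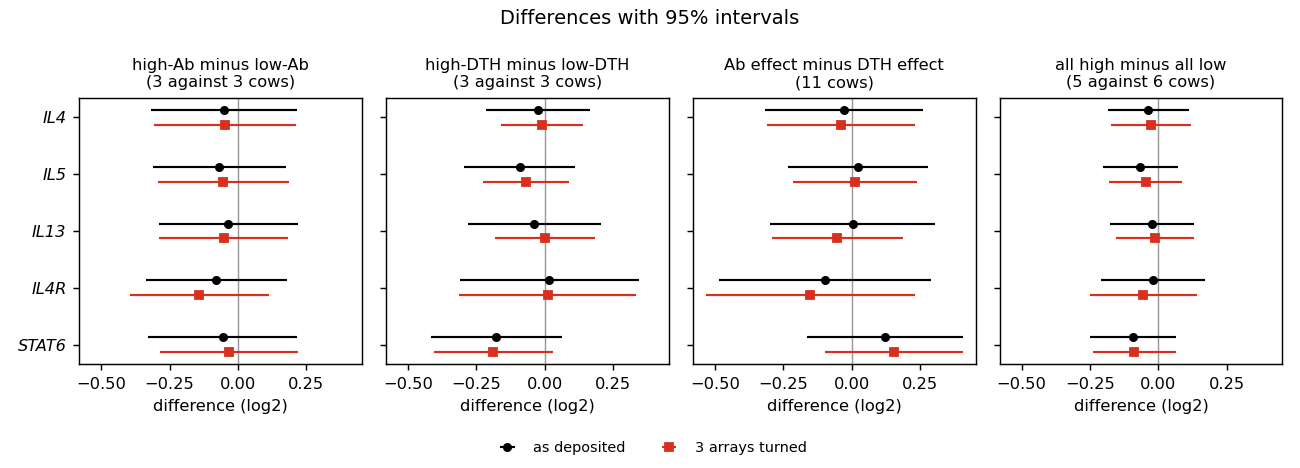
Difference in log2 ratio (horizontal axis) with 95% intervals for the 5 genes in the 4 comparisons, from limma fits of cow values. Black circles use the arrays as deposited and red squares the 3 arrays of unsettled sign turned. Every interval includes 0, and STAT6 in the DTH comparison has the largest difference as deposited, −0.18.

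In the Ab comparison, the adjusted test was passed by 0% of 562 features, an unadjusted p under 0.05 was reached by 6.58%, and 10.6% of the named genes had high and low cows that did not overlap. The counts of 0 of 5 type 2 genes are to be read against those shares. All 5 genes had a lower mean in the high-Ab cows, as did 77 of the 141 named genes. The median size of the difference was 0.056 for the 5 genes and 0.072 for the 141. In the DTH comparison, the shares were 0% of 565 features by the adjusted test and 9.73% by unadjusted p, and 15.6% of the named genes did not overlap. Here 4 of the 5 genes were lower in the high-DTH cows, as were 85 of the 141 named genes, with median sizes of 0.039 and 0.092. Both comparisons hold the shared cow in the high class, so their signs are not independent.

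Whether a gene's high-minus-low effect differed between the traits was tested in a fit of all 11 cows, where the adjusted test was passed by 1.25% of 561 features and an unadjusted p under 0.05 was reached by 10.2%. The Ab effect minus the DTH effect was −0.027 ± 0.13 (SE) for IL4, 0.024 ± 0.11 for IL5, 0.0039 ± 0.13 for IL13, −0.097 ± 0.17 for IL4R and 0.12 ± 0.12 for STAT6. No adjusted p was below 0.878 (limma). With the 3 arrays turned the value for IL13 became −0.052 ± 0.10, so its sign is not settled. The intervals of the 5 genes ran from −0.48 to 0.41, which leaves room for effects larger than those measured.

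The comparison with the most cows set all 5 high against all 6 low responders, each cow counted once. There the adjusted test was passed by 0% of 561 features and an unadjusted p under 0.05 was reached by 3.57%, and 1.42% of the named genes did not overlap. High minus low was −0.036 ± 0.067 (SE) for IL4, −0.067 ± 0.063 for IL5, −0.022 ± 0.070 for IL13, −0.020 ± 0.087 for IL4R and −0.094 ± 0.072 for STAT6 (adjusted p = 0.996 for each, limma). The 5 genes were lower in the high responders by their means, as were 83 of the 141 named genes. Their 95% intervals ran from −0.25 to 0.17, the narrowest of the 4 comparisons.

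With all arrays used, the 3 cytokine genes followed each other from cow to cow, while the receptor and STAT6 did not follow them. Over the 11 cows, IL5 and IL13 correlated at r = 0.90 (rho = 0.87), IL4 and IL5 at r = 0.79 (rho = 0.64) and IL4 and IL13 at r = 0.73 (rho = 0.59). Among all 9870 pairs of named genes the median r was 0.0085, the upper quartile was 0.31, and 2.30% of pairs were at or above the r of IL4 and IL13. IL4R correlated with the cytokines at 0.36 (IL4), 0.13 (IL5) and 0.047 (IL13), STAT6 at −0.35, 0.044 and −0.22, and IL4R with STAT6 at 0.17. In the reference annotation (RefSeq, ARS-UCD2.0) the 3 cytokine genes lie close together on chromosome 7, in the order IL4, IL13, RAD50, IL5, whereas IL4R is on chromosome 25 beside IL21R and STAT6 on chromosome 5 between LRP1 and NAB2. RAD50, a DNA repair gene inside the cluster, was not among the named genes.

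How strong these correlations were depended on a pair of arrays. For each cytokine only 2 of 44 arrays exceeded 0.3, and they were the same arrays, array 4 of high-Ab cow 2 and array 4 of low-Ab cow 3. IL4 was at 0.69 and 0.58 on them, IL5 at 0.42 and 0.37 and IL13 at 0.31 and 0.72. The cow's RNA carried Alexa555 on both. The SD over all spots was 0.58 and 0.81, against a median of 0.43 over arrays, and the second was the widest array of the 44. Without these 2 arrays, a choice made after their values were seen, r was 0.49 for IL5 and IL13, 0.61 for IL4 and IL5 and 0.35 for IL4 and IL13. IL13 in low-Ab cow 3 then moved from 0.14 to −0.083 and IL4 in high-Ab cow 2 from 0.21 to 0.092. IL5 in low-Ab cow 3 moved only from 0.14 to 0.12, so IL5 and IL13 parted in that cow.

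Leaving out both cows instead left IL5 and IL13 at r = 0.80 and IL4 with IL5 and IL13 at 0.46 and 0.35 (9 cows). The correlation of IL5 and IL13 was thus present among cows that hold neither array, while those with IL4 were weaker there. The correlations also depended on the dye. From arrays with the cow in Alexa555 they were 0.78 (IL4 and IL5), 0.79 (IL4 and IL13) and 0.76 (IL5 and IL13), and from arrays with the cow in Alexa647 they were 0.25, 0.36 and 0.49. From arrays 1 and 2 alone, which also hold both orientations, they were 0.46, 0.026 and −0.37. Pairs with IL4R or STAT6 moved as well. In Alexa555 IL4R correlated with IL4 at 0.66, with IL5 at 0.59 and with STAT6 at 0.63. In Alexa647 the same pairs were at 0.46, −0.02 and 0.09. From arrays 1 and 2 alone IL5 and STAT6 were at 0.61. The contrast between the cytokine pairs and the other pairs thus depended on the arrays used. The cows share the common standard on all arrays, and genes on 1 array share its dye and normalization, so these values describe the arrays as well as the cells.

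**Figure D3:**
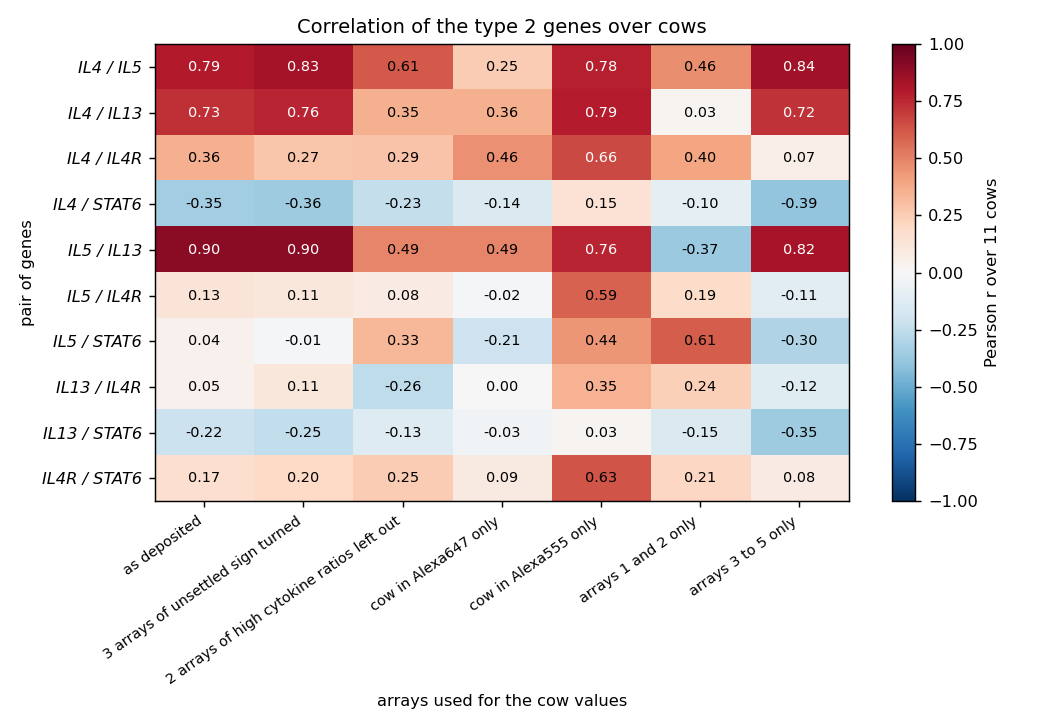
Pearson r over 11 cows for the 10 pairs of the 5 genes (rows) under 7 choices of arrays (columns), coloured from −1 (blue) to 1 (red). IL5 and IL13 run from 0.90 with all arrays to −0.37 with arrays 1 and 2 only, and the pairs with IL4R or STAT6 are weaker than the cytokine pairs with all arrays.

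Agreement between the dye orientations of a cow shows how far a cow value can be relied on. IL4 was lower with the cow in Alexa647 than with the cow in Alexa555 in 11 of 11 cows, by a mean of −0.19. The corresponding difference was −0.14 for IL5 (lower in 9 of 11 cows), −0.10 for STAT6 (8 of 11), −0.088 for IL4R (7 of 11) and −0.081 for IL13 (6 of 11), against a median size of 0.14 over the named genes. For IL4 this shift was larger than the SD of its cow values, 0.088. It cancels in a cow value as far as both orientations shift alike, since each orientation has equal weight.

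The orientations ranked the cows differently for most of the 5 genes. Over 11 cows, values from the opposite orientations correlated at r = 0.47 for IL13, 0.38 for STAT6, 0.12 for IL4R, 0.090 for IL4 and −0.046 for IL5, and the median over the named genes was 0.37. For IL4, IL5 and IL4R the order of the cows was thus largely not the same after the swap. STAT6 in the shared cow was at −0.23 in Alexa647 and −0.27 in Alexa555, and in high-DTH cow 2 at −0.21 and −0.25. IL4R in high-DTH cow 3 was at 0.43 and 0.11, above 0 in both, and in high-DTH cow 2 at −0.14 and −0.24. IL4 in high-Ab cow 2, by contrast, was at −0.048 in Alexa647 and 0.46 in Alexa555.

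**Figure D4:**
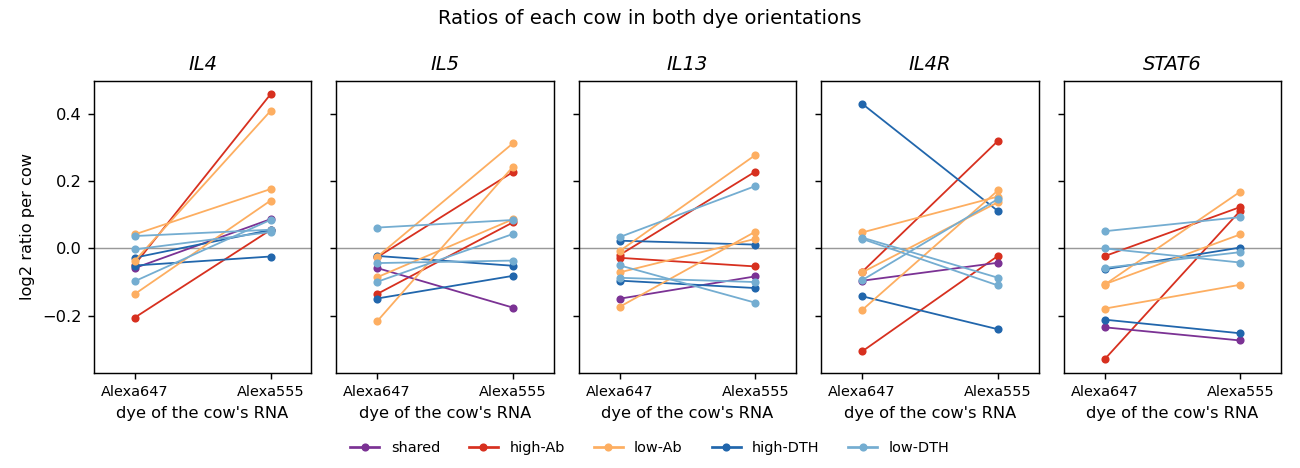
Log2 ratio per cow with the cow's RNA in Alexa647 (left) and in Alexa555 (right), a line joining the 2 values of each of 11 cows, coloured by label group. IL4 lines all go up from Alexa647 to Alexa555. For STAT6, the shared cow and high-DTH cow 2, lowest by cow value, have nearly flat lines. High-Ab cow 2 is the lowest in Alexa647 (−0.33) but rises to 0.11 in Alexa555.

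The type 2 genes were among the less variable genes of the array. The SD over the 11 cow values was 0.088 for IL4, 0.083 for IL5, 0.095 for IL13, 0.13 for IL4R and 0.11 for STAT6, against a median of 0.15 over the 141 named genes, which put them at ranks 112, 116, 107, 74 and 88 from the most variable. The SD between arrays of a cow was 0.18, 0.16, 0.18, 0.18 and 0.14, in the same order of genes, against a median of 0.26. It exceeded the SD between cows for each of the 5 genes. Spots of IL5 and IL13 scattered more than most, with an SD of 0.17 between the 8 spots of an array (ranks 18 and 19 of 141). IL4 was at 0.15, and IL4R (0.12) and STAT6 (0.13) were slightly below the median of 0.13. Each gene was represented by 1 clone, so the spots do not test the probe's specificity.

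**Figure D5:**
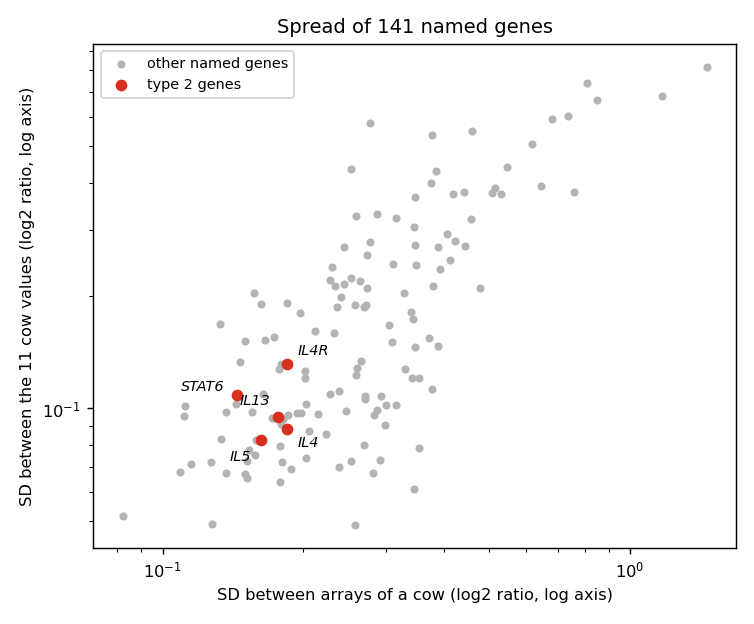
SD between the 11 cow values against the SD between arrays of a cow, both in log2 ratio on log axes, for the 141 named genes (grey) with the 5 type 2 genes in red. The 5 genes lie below the medians of both axes (0.15 and 0.26), with IL4R the most variable between cows at 0.13.

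Of 54 genes listed for the type 2 response and IL4 receptor signalling, 17 were on the array, the 5 genes included, and 0 of 17 passed the adjusted test in any comparison. For Ab, 6 were higher and 11 lower in the high class, with a median difference of −0.051 against −0.0089 over the named genes. Of the genes besides the 5, those of smallest p were FCER1G, the signalling chain of Fc receptors (−0.40 ± 0.14, SE, adjusted p = 0.571, limma), CSF2, the cytokine GM-CSF (−0.14 ± 0.11), and IL10RB, a receptor chain for IL10 (0.13 ± 0.14). For DTH, 10 were higher and 7 lower, with a median of 0.017 against −0.031. Smallest in p were the chemokine receptors CCR4, found on type 2 helper and skin-homing T cells (0.38 ± 0.11), and CCR3, found on eosinophils (0.65 ± 0.20), both at adjusted p = 0.494, and the regulatory cytokine IL10 (0.24 ± 0.21). High and low cows did not overlap for CCR4 and CCR3, as for 15.6% of named genes in that comparison. In the Ab comparison they did not overlap for FCER1G and for CSF2RB, another gene of the list, as for 10.6% of named genes.

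For the difference between the traits, 5 of the 17 were above 0 and 12 below, against 75 and 66 of the 141 named genes. The genes besides the 5 with the smallest p were CCR3 (−0.42 ± 0.15, SE, adjusted p = 0.297, limma), CCR4 (−0.39 ± 0.14, adjusted p = 0.333) and IL6 (−0.21 ± 0.14). Over all cows 8 were higher and 9 lower in the high class, against 58 and 83 of the named genes. Of the genes besides the 5, CCR3 (0.34 ± 0.16), CCR4 (0.15 ± 0.11) and CSF2 (−0.074 ± 0.073) had the smallest p. CCR3 ran against STAT6 from cow to cow, at r = −0.81 (rho = −0.55, 11 cows), the lowest r of STAT6 with any named gene. In the shared cow, high-DTH cow 2 and high-DTH cow 3 CCR3 was at 0.97, 0.52 and 0.26, where STAT6 was at −0.25, −0.23 and −0.030. Without the shared cow and high-DTH cow 2, r was −0.40 over 9 cows, so the relation rested largely on those animals.

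Of 26 genes of the opposing type 1 response, 8 were measured and 0 passed. In the Ab comparison 6 were higher and 2 lower (median 0.082), against 64 and 77 of the 141 named genes. IL18, an inducer of interferon gamma, had the smallest p (0.31 ± 0.12, SE), followed by IL12RB2 (0.17 ± 0.082), a receptor chain for IL12, and IL12B (0.12 ± 0.13), an IL12 subunit. High and low cows did not overlap for IL18 and IL12RB2, as for 10.6% of named genes there. For DTH 4 were higher and 4 lower, against 56 and 85 of the named genes. There IL18 was at 0.32 ± 0.15, IL2 at −0.099 ± 0.11 and IFNG, interferon gamma itself, at −0.048 ± 0.13. Across all cows 6 were higher and 2 lower, against 58 and 83 of the named genes, and IL18 stood at 0.28 ± 0.092. Of 21 genes of the STAT family and of cytokines using the common gamma chain, 8 were measured and 0 passed. STAT3, the other STAT gene with a name on the array, differed by 0.035 ± 0.089 for Ab and 0.019 ± 0.086 for DTH. IL2RG, the common gamma chain that pairs with the IL4R product, differed by 0.082 ± 0.089 and 0.011 ± 0.090, and IL15 by 0.074 ± 0.16 and −0.31 ± 0.16.

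Most T cell markers had higher means in the high classes, though none passed the adjusted test. Of 10 T cell markers 7 were measured. Of these, 6 were higher in the high-Ab and 7 in the high-DTH cows, against 64 and 56 of the 141 named genes. The median differences of the markers were 0.41 and 0.33. With the 3 arrays turned the medians fell to 0.27 and 0.21. As deposited, the mean ratio of the 7 markers lay between 0.32 and 0.69 in the 5 high cows. In the 6 low cows it lay between −0.038 in low-Ab cow 1 and 0.35 in low-DTH cow 3, the cows that hold those arrays. Of 9 B cell markers 4 were measured, and all 4 were lower in the high-DTH cows (median −0.28), as were 85 of the 141 named genes and STAT6 by its mean. For Ab 1 was higher and 3 lower (median −0.038), or 3 higher and 1 lower with the 3 arrays turned (median 0.015). The B cell marker mean was −0.44, −0.17 and 0.057 in the shared cow and high-DTH cows 2 and 3, and −0.027, 0.53 and −0.028 in the low-DTH cows. Of 8 neutrophil markers 2 were measured. LTF, the neutrophil granule protein lactoferrin, was at −1.04 ± 0.54 (SE, adjusted p = 0.858, limma) for Ab, the largest difference of the 141 named genes there, and at −0.041 ± 0.22 for DTH, and CXCR2 was at −0.015 ± 0.097 and 0.029 ± 0.10. The neutrophil marker mean was −0.83 in high-Ab cow 2 and 0.67 in low-Ab cow 3, the lowest and the highest of the 11 cows. CD163L1, the gamma delta T cell marker, was at 0.76 ± 0.35 for Ab and 0.45 ± 0.37 for DTH. Monocyte and natural killer lists had 2 measured genes each, with median differences of −0.028 and −0.20 for Ab and 0.020 and −0.14 for DTH, and the list for eosinophils, basophils and mast cells had CCR3 alone. The part of these marker values in the values of the 5 genes was not tested. No platelet or red cell marker was among the named genes.

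The 3 named genes most like each gene over the 11 cows, by Pearson r among 140 others, differed from gene to gene. For IL4 they were MIF, a macrophage cytokine (0.87), IL12A, an IL12 subunit (0.86), and IL3, a growth factor gene (0.82). Without the 2 cows farthest from the IL4 median, MIF kept 0.87 while IL12A had 0.63 and IL3 0.32. For IL5 they were IL13, GHR, the growth hormone receptor (0.85), and NFKB2, an NF-kB subunit (0.83), and for IL13 they were IL5, CCR9, a gut-homing chemokine receptor (0.84), and GHR (0.83). These stayed between 0.63 and 0.83 without the 2 farthest cows. For IL4R they were CCR7, the lymph node homing receptor (0.75), CSF1, the macrophage growth factor (0.70), and BOLA-DQA2, an MHC class II gene (0.64), which stood at 0.47, 0.40 and 0.44 without the 2 high-DTH cows at the ends of its range. For STAT6 they were FCGRT, the neonatal Fc receptor (0.73, or 0.53 with the 3 arrays turned), PSMB9, an immunoproteasome subunit (0.72), and CD40, a costimulatory receptor of B cells (0.71), at 0.79, 0.77 and 0.40 without the shared cow and high-DTH cow 2. The genes were picked as the highest of 140, on arrays that share a standard and dyes, so these values are descriptions.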

How the data were processed

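The authors' deposited table holds 1 log ratio per spot and array, read as log2, for 1680 spots and 44 arrays. How background and normalization were handled, and which sign swapped arrays received, is not given in the sources used here. The platform annotation named 1224 spots with 1 symbol, 16 with several and 440 with none, and Entrez identifiers gave the RefSeq gene order. Spots were averaged per gene, arrays within each dye orientation, then both orientations, giving 1 value per cow. Spot intensities were not analysed here, and the number of cows limits the precision.

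The 5 genes and all gene lists were chosen with earlier results of these data known. Besides the 5 genes, the text names the 3 genes of highest r with each, the 3 list genes of smallest p per comparison, and the measured genes of the STAT list that bear on the pathway. CD163L1, LTF and CXCR2 are named as marker list members and RAD50 as a neighbour.

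Tests used limma 3.58.1 (R 4.3.3, lmFit and eBayes) on all features, two-sided, adjusted by Benjamini-Hochberg with 0.05 as the threshold, and were tested on simulated data. A feature needed a value in both orientations of each cow. With 3 cows a side, exact permutation allows no p under 0.1 and was not used. Alternatives were array choice, dye, normalization, spot summary, filter, blocks and leaving out each cow.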

Additional observations from a re-analysis of the deposited data

How the results depend on the processing

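Over 420 values of the 5 genes under alternatives, 0 passed the threshold and 42 had the opposite sign, and the smallest adjusted p was 0.178, for STAT6 and DTH (−0.18 ± 0.066) with arrays as units and the cow as a random block. With arrays as units the number of features past the threshold was 15 for Ab, 2 for DTH, 2 for the difference between traits and 9 for all cows. That fit shares 1 within-cow correlation over all features and draws its error on technical arrays, so it can understate the spread between cows of a single gene. The count for the difference was 7 in the main analysis, 0 with the 3 arrays turned or left out, with quantile normalization, with either dye alone, with arrays 1 and 2, with arrays 3 and above (which leave low-DTH cow 3 with 1 array) or with no filter, 2 with named genes only and 4 with the pair of arrays of high cytokine ratios left out, an alternative added after seeing the data. Leaving out each cow gave 0 to 1 features for Ab and 0 to 7 for the difference. Cows of the same number were not treated as pairs in the main analysis. Deviations of same-numbered cows correlated between −0.23 and −0.013 for Ab and between −0.59 and −0.23 for DTH. With 3 cows a class these values cannot settle whether the numbers pair cows. With the cow number as a replicate block, 0 features passed for Ab and 0 for DTH, and STAT6 for DTH was −0.18 ± 0.12 (adjusted p = 0.912, limma).

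Leaving out each cow in turn gave, for Ab, −0.13 to 0.010 (IL4), −0.13 to −0.017 (IL5), −0.096 to 0.024 (IL13), −0.16 to −0.015 (IL4R) and −0.13 to 0.019 (STAT6). For DTH it gave −0.038 to −0.0070 (IL4), −0.12 to −0.056 (IL5), −0.082 to 0.031 (IL13), −0.12 to 0.11 (IL4R, negative without high-DTH cow 3) and −0.25 to −0.14 (STAT6). For the difference it gave −0.11 to 0.034 (IL4), −0.034 to 0.070 (IL5), −0.066 to 0.063 (IL13), −0.19 to 0.037 (IL4R) and 0.045 to 0.19 (STAT6), and over all cows −0.082 to −0.011 (IL4), −0.10 to −0.043 (IL5), −0.055 to 0.0062 (IL13), −0.090 to 0.026 (IL4R) and −0.14 to −0.059 (STAT6).

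Signs turned as follows. In the Ab comparison IL5 was 0.036 in Alexa647 and 0.014 with arrays 3 and above, and IL13 was 0.019 in Alexa647, 0.098 with arrays 1 and 2, 0.0092 with spot medians and 0.025 without that pair of arrays. In the DTH comparison IL4R was −0.041 in Alexa555. For the difference, IL4 was 0.0089 with arrays 3 and above, IL5 was −0.0026 with quantile normalization, −0.038 in Alexa555 and −0.030 with arrays 1 and 2, and IL13 was −0.052 turned, −0.00056 with the 3 arrays left out, −0.011 with quantile normalization, −0.050 in Alexa555 and −0.065 with arrays 3 and above. Over all cows IL13 was 0.0018 with quantile normalization, 0.0055 in Alexa647, 0.042 with arrays 1 and 2 and 0.0063 without the pair of arrays, and IL4R was 0.0033 in Alexa647. The cause was not tested.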
